A study of Mus musculus with 21 samples.

Results

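The genes described are those for the proteins of the cytosolic ribosome, measured by bulk RNA sequencing in sorted mouse brain myeloid cells after traumatic brain injury. Members were the protein-coding genes of GENCODE M21 whose symbol starts with Rpl or Rps and a digit, plus Rplp0, Rplp1, Rplp2 and Rpsa. The ribosomal S6 kinases, Rps19bp1 and pseudogene symbols were left out. The rule gave 85 genes of the 45706 in the table: 33 for the small subunit and 52 for the large one, on 19 chromosomes. Fau, which encodes a ribosomal protein fused to a ubiquitin-like domain, does not match the rule by name and is not among them. The rule itself uses symbols and no measured value.

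All mice were males on the C57BL/6 background, aged 17 to 24 weeks. Wild-type (WT) mice and mice with the fibrinogen mutation Fgg γ390–396A, a germline knock-in that changes the site by which fibrin binds the CD11b integrin, received controlled cortical impact (CCI), an open-head model of contusion. Sham controls had anesthesia, incision and craniotomy but no impact. Their titles carry no genotype and no time, and they were taken here as WT. Microglia, sorted as live CD45low CD11b+ cells, came from sham mice and from both genotypes at 1 d and 7 d post-CCI. Infiltrating myeloid cells, sorted as CD45hi CD11b+ cells, came from both genotypes at 1 d. Each of these 7 groups held 3 libraries, and each library pooled the tissue around the lesion of 2 brains (40000 microglia or 25000 infiltrating cells). No uninjured Fgg γ390–396A group was analysed here, so a genotype difference present before injury cannot be told apart from one that follows it. Each of the 4 comparisons with sham uses the same 3 sham libraries, and comparisons with the 1 d microglia of a genotype share those libraries too.

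A cytosolic ribosome is built from ribosomal RNA and one copy of most of these proteins, the small subunit decoding the mRNA and the large subunit joining amino acids. The proteins are made in balanced amounts, and their mRNAs carry a tract of pyrimidines at the very start (a 5′ TOP), through which growth signals set their translation. Assembly takes place in the nucleolus, with RNA polymerase I, small nucleolar ribonucleoproteins (snoRNPs) that modify the ribosomal RNA, and many assembly factors. Microglia are the resident macrophages of the brain and leave a resting state after injury.

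Several members are near-copies of one another or have pseudogenes elsewhere in the genome, and this decides which of their counts can be told apart. Rps27 (chr3:90212522-90213651, minus strand) and its retrocopy Rps27rt (chr9:114982366-114982739, minus strand) were identical over all 255 coding bases, while Rps27l (chr9:66946086-66949516, plus strand) matched Rps27 at 76.55% of 226 aligned coding bases. The windows show coding bases 4 to 63 of Rps27 and the bases aligned to them (GRCm38, GENCODE M21), in capitals where the 3 differ.
Rps27: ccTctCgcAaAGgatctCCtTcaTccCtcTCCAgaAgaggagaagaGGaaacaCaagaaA
Rps27rt: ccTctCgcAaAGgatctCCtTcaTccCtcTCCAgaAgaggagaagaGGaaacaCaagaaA
Rps27l: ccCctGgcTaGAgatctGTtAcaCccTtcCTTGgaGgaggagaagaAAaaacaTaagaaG
Reads from the coding part of Rps27 and Rps27rt therefore cannot be told apart, and the values of both were taken as uncertain in how the counts were split between them.

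Rps3a1 (chr3:86137940-86142702, minus strand) and its processed pseudogenes Rps3a2 (chr14:88123017-88123808, minus strand) and Rps3a3 (chr13:108670603-108671397, plus strand) are shown because the sole genotype call among the members turned on them. Rps3a2 differed from Rps3a1 at 4 of 792 aligned bases (99.49% identity) and Rps3a3 at 9 of 795 (98.87%). The windows give coding bases 609 to 668, counted from 1 at the start codon of Rps3a1, with capitals where the 3 differ. The substitutions inside it were A645T and T668C in Rps3a2 and A660G in Rps3a3, the base of Rps3a1 first.
Rps3a1: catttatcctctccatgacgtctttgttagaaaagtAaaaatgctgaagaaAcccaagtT
Rps3a2: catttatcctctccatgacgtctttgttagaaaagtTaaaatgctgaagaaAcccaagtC
Rps3a3: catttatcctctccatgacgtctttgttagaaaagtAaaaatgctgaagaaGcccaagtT
Rpl34 (chr3:130726831-130730398, minus strand) differed from Rpl34-ps1 (chr6:71124610-71124963) at 2 of 354 bases (T132C and C318G), so most positions separate neither pair.

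Start sites were searched for the pyrimidine tract, and fewer than all members held a long one by the RefSeq start. In windows of 30 bases centred on the start of the gene in RefSeq (GRCm38.p6, 65 members with an entry), the longest run of C and T had 8 or more bases in 27 members (41.5%), against 13.9% of 27025 genes. The motif CTTTCC, itself part of such a run, searched on the transcribed strand over 250 bases before to 50 after the start, was found in 27 of 65 members (41.5%) and in 16% of genes. CCGGAAG, searched on either strand in the same window, was found in 26 members (40%) and in 9.93% of genes. These matches describe letters in the window and show no bound factor. The 6 windows that follow show the range from a long tract to a short one, with the longest run in capitals.
Rpl35: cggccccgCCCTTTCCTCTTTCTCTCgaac
Rpl15: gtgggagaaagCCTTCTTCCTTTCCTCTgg
Rplp2: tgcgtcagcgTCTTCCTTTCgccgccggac
Rps27: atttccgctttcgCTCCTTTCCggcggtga
Rps2: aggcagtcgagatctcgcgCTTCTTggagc
Rpsa: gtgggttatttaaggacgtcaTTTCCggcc
They lie at chr2:39005117-39005146 (minus strand), chr14:18270972-18271001 (minus), chr7:141447636-141447665 (plus), chr3:90213634-90213663 (minus), chr17:24720048-24720077 (plus) and chr9:120127751-120127780 (plus). The runs were 18, 17, 10, 9, 6 and 5 bases long. At 1 d in WT microglia, the median log2 fold change over sham was 1.53 in the 27 members with a run of 8 or more and 1.47 in 37 with a shorter one.

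Of the 85 members, 84 had at least 5 counts over all libraries and entered the test. Rpl10l, a testis paralog, was at 0 in all 21 libraries. The members are abundant: their median level was 598.3 CPM (counts per 1e6 of the TMM-scaled library total), against 1.156 CPM over all 23815 genes tested, and 81 had a mean of at least 100 CPM. The deposited counts have gene length divided out, so levels can be compared between genes. Rps29, a small zinc-binding protein of the small subunit, held 4.87% of all member counts, Rps27 3.63% and Rplp1, an acidic stalk protein, 2.84%. At the other end stood Rpl3l, the striated-muscle paralog of Rpl3, with 44 counts in all libraries together, Rpl39l, a germ-cell paralog of Rpl39, with 633, and Rpl7l1, a paralog of Rpl7, with 7296. The 2 paralogs Rpl3l and Rpl39l were too sparse for their fitted changes to be read.

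Depth ran from 18897000 to 51875800 counts per library and from 9841400 to 27394600 outside ribosomal RNA, so a floor of 3 counts corresponds to 0.0448 to 0.158 CPM, far under the level of 81 members. Ribosomal RNA took 43.0% to 58.6% of counts. Summed microglia markers stood at 9829 to 11069 CPM in sham, 3497 to 5867 CPM at 1 d, 6053 to 7801 CPM at 7 d and 402 to 990 CPM in infiltrating cells, which held 2638 to 12938 CPM of neutrophil markers against 105 to 862 CPM in microglia. Library number 1 of both 1 d microglia groups held 70.2 and 67.1 CPM of monocyte and macrophage markers, against 9.2 to 16.5 CPM in numbers 2 and 3. Sham number 3 held 61.7 CPM of them, against 6.5 and 14.8 CPM in the other sham libraries, with 797 CPM of neutrophil markers against 160 and 247 CPM, and the 7 d libraries held 31.4 to 53.8 CPM. Without sham number 3, 79 and 75 members were called at 1 d and 69 and 20 at 7 d, in WT and Fgg γ390–396A microglia. Shares of all genes called without that library are not given, so these counts cannot be set against a share. Markers of neurons, astrocytes, oligodendrocytes, endothelial cells, red blood cells and lymphocytes did not pass 49.0 CPM in any library. Their part in the member values was not tested beyond leaving out these libraries. In bulk samples a different mix of cells and a different RNA content per cell cannot be told apart.

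The first question was how much of the RNA of these cells belonged to ribosomal proteins. In sham microglia the members took 6.17%, 7.70% and 6.91% of the counts outside ribosomal RNA. At 1 d they took 12.9%, 13.5% and 12.8% in WT microglia and 10.9%, 12.2% and 13.6% in Fgg γ390–396A microglia. All 6 injured libraries of that day lay above every sham library. At 7 d the shares were 11.6%, 9.58% and 11.2% in WT and 9.90%, 10.6% and 10.9% in Fgg γ390–396A microglia, between the sham and the 1 d means. Infiltrating cells held 16.7%, 14.5% and 12.5% in WT and 14.9%, 14.2% and 13.9% in Fgg γ390–396A mice. As ratios of group means with their propagated SD (n = 3 per group), the share relative to sham was 1.89 ± 0.214 for WT and 1.76 ± 0.278 for Fgg γ390–396A microglia at 1 d, and 1.56 ± 0.233 and 1.51 ± 0.181 at 7 d. Infiltrating cells stood at 1.11 ± 0.163 times the WT and 1.17 ± 0.138 times the Fgg γ390–396A microglia of the same day. The first of these differed from 1 by less than its SD, and its direction depends on the denominator. Of protein-coding counts outside the mitochondrial genome, the members took 17.3% ± 2.21 in WT infiltrating cells and 17.5% ± 0.702 in WT microglia, against 17.3% ± 0.900 and 15.8% ± 1.99 in Fgg γ390–396A mice (SD, n = 3).

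**Figure D1:**
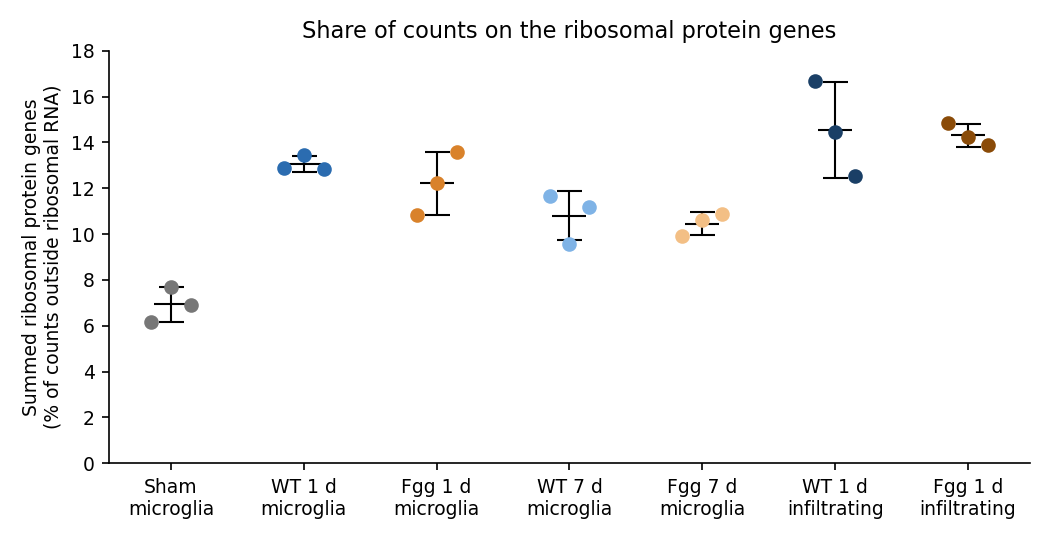
Each point is one library's share of counts outside ribosomal RNA taken by the 85 ribosomal protein genes (linear axis from 0), with the group mean and SD (n = 3) in black. Sham libraries lie at 6.17% to 7.70%, and all 18 others lie above them, from 9.58% to 16.7%.

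At 1 d post-CCI nearly the whole family rose in microglia of both genotypes. In WT microglia 79 of 84 members were higher than in sham and 0 were lower, with a median log2 fold change of 1.47 (quartiles 1.21 and 1.69). Over all genes tested 10.7% were higher and 5.97% lower, with a median of 0. The Fgg γ390–396A microglia had 77 members higher and 1 lower, with a median of 1.24, against 7.6% and 2.19% of all genes. Calls are an adjusted p under 0.05 in the quasi-likelihood test of edgeR, with p-values adjusted over all genes by the Benjamini-Hochberg method. Both subunits took part: in WT microglia 31 of 33 small-subunit and 48 of 51 large-subunit members rose, with medians of 1.45 and 1.49. The size of the rise depends on scaling, since the TMM factors (edgeR's correction of library totals for composition) were 1.39 to 1.55 in sham and 0.74 to 1.29 at 1 d. With totals outside ribosomal RNA alone, 73 and 70 members were higher, and the medians were 1.01 and 0.90 while those of all genes were -0.39 and -0.23. The share of all genes called on that scale is not given.

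Rpsa and Rps2 rose most among the members with at least 1000 counts. Rpsa, the small-subunit protein also known as a laminin receptor precursor, measured 55.6, 66.7 and 86.7 CPM in sham. It reached 369.4, 566.3 and 557.2 CPM in WT and 257.5, 465.9 and 500.9 CPM in Fgg γ390–396A microglia. No injured library overlapped with sham, and the log2 fold changes were 2.84 ± 0.25 (SE) in WT and 2.55 ± 0.25 in Fgg γ390–396A microglia (edgeR, adjusted p = 3.72e-07 and 2.17e-06). Rps2, a core protein at the entry of the mRNA channel, rose from 139, 183 and 171 CPM in sham to 785, 1050 and 1168 CPM in WT microglia, a log2 change of 2.61 ± 0.21 (adjusted p = 1.84e-07). In Fgg γ390–396A microglia Rps2 stood at 558, 882 and 967 CPM, a log2 change of 2.29 ± 0.21 (adjusted p = 1.21e-06). In both genotypes library number 1, with the higher monocyte markers, was the lowest of the 3 for Rpsa and Rps2. Rps19, needed for maturation of the small subunit and mutated in Diamond-Blackfan anemia, rose by 2.20 ± 0.19 in WT and 1.93 ± 0.19 in Fgg γ390–396A microglia on the log2 scale (adjusted p = 3.19e-07 and 2.28e-06).

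In the large subunit, Rpl41, the shortest ribosomal protein, rose from 446.9, 482.3 and 436.1 CPM in sham to 1647, 2438 and 2266 CPM in WT microglia at 1 d. Its log2 change was 2.22 ± 0.20 (adjusted p = 3.55e-07), and in Fgg γ390–396A microglia it was 1.72 ± 0.19 (adjusted p = 9.52e-06). Of the stalk proteins, which recruit the elongation factors, Rplp0, the stalk base, rose by 2.09 ± 0.21 in WT microglia, Rplp1 by 1.05 ± 0.20 and Rplp2 by 1.21 ± 0.20 (adjusted p = 1.27e-06, 0.000916 and 0.000171). As a share of all members, Rplp0 gained 0.72 ± 0.14 and Rplp1 changed by -0.32 ± 0.12 (adjusted p = 0.000394 and 0.0455). Rps6, the phosphorylated substrate of the S6 kinases, rose by 1.64 ± 0.19 (adjusted p = 5.77e-06).

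Of the members chosen for a known role outside the ribosome, Rpl5, Rpl11, Rpl13a and Rps3 were higher at 1 d in WT microglia, where 79 of 84 members were. Rpl5 and Rpl11, which form a particle with 5S ribosomal RNA that can bind the p53 inhibitor Mdm2, are given first. Rpl5 measured 132.3, 137.2 and 140.5 CPM in sham and 290.9, 338.8 and 333.2 CPM in WT microglia at 1 d, and the groups did not overlap. Its log2 change was 1.23 ± 0.15 and that of Rpl11 1.49 ± 0.18 (adjusted p = 9.14e-06 and 7.75e-06). Rpl13a, known from a complex that silences inflammatory mRNAs, rose by 1.43 ± 0.23, and Rps3, also a DNA repair factor, by 1.45 ± 0.18 (adjusted p = 0.000136 and 1.42e-05). Fau, outside the rule, rose by 1.05 ± 0.19 (adjusted p = 0.000586).

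A few members did not pass the test at 1 d. Rps27, a zinc-finger protein of the small subunit, measured 1020, 1255 and 1139 CPM in sham and 1382, 1814 and 1472 CPM in WT microglia. The groups did not overlap, but the log2 difference was 0.45 ± 0.18 (adjusted p = 0.106), and in Fgg γ390–396A microglia 0.41 ± 0.18 (adjusted p = 0.208). Its retrocopy Rps27rt gave 0.49 ± 0.22 and 0.46 ± 0.22 (adjusted p = 0.156 and 0.246), with the split of counts between the 2 uncertain. Rps27l, a paralog known as a target of p53, went from 39.6, 37.2 and 26.2 CPM in sham to 110, 197 and 150 CPM in WT microglia. That is a log2 rise of 2.15 ± 0.23 (adjusted p = 2.97e-06). Rpl7l1 measured 9.72, 10.2 and 13.4 CPM in sham and 10.04, 12.99 and 14.99 CPM in WT microglia at 1 d, and the groups overlapped (log2 difference 0.19 ± 0.24, adjusted p = 0.658). The paralog Rpl22l1 and its parent Rpl22 both rose, by 1.63 ± 0.21 and 1.53 ± 0.21 in WT microglia (adjusted p = 1.33e-05 and 3.49e-05).

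At 7 d most members still stood above sham in WT microglia, by less than at 1 d. In WT microglia 77 of 84 members were higher than in sham and 0 lower, with a median log2 fold change of 0.98, against 2.42% and 0.265% of all genes. In Fgg γ390–396A microglia 31 were higher and 1 lower, with a median of 0.78, against 0.831% and 0.0546% of all genes. Without any 1 of the 6 libraries compared, the Fgg γ390–396A count at 7 d fell to between 4 and 20, while the median stayed between 0.69 and 0.85, and DESeq2, another count model, called 75. In WT the count was 46 without sham number 1 and 49 without WT number 1. With library totals alone the counts were 22 in WT and 4 in Fgg γ390–396A microglia. Shares of all genes called in these refits and in DESeq2 are not given. Their counts therefore cannot be set against the shares above or read as a result about the members. Rpl41 remained 1.45 ± 0.19 above sham in WT microglia and 1.17 ± 0.19 in Fgg γ390–396A microglia on the log2 scale (adjusted p = 0.000222 and 0.00343). Rpl15 and Rpl7a, both of the large subunit, were higher by 1.24 ± 0.17 and 1.17 ± 0.16 in WT microglia (adjusted p = 0.000337 and 0.000356). Rpl10a, also of the large subunit, was higher by 1.10 ± 0.15 in WT and 0.87 ± 0.15 in Fgg γ390–396A microglia (adjusted p = 0.000361 and 0.00725). Rps27 reached 2279, 1764 and 2243 CPM in WT microglia, with 2 of the 3 above every 1 d library, and passed the test against sham there (0.88 ± 0.18, adjusted p = 0.00895) but not in Fgg γ390–396A microglia (0.72 ± 0.18, adjusted p = 0.0771). Rplp1 did not pass in either genotype at 7 d (0.33 ± 0.20 and 0.23 ± 0.20, adjusted p = 0.543 and 0.877).

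**Figure D2:**
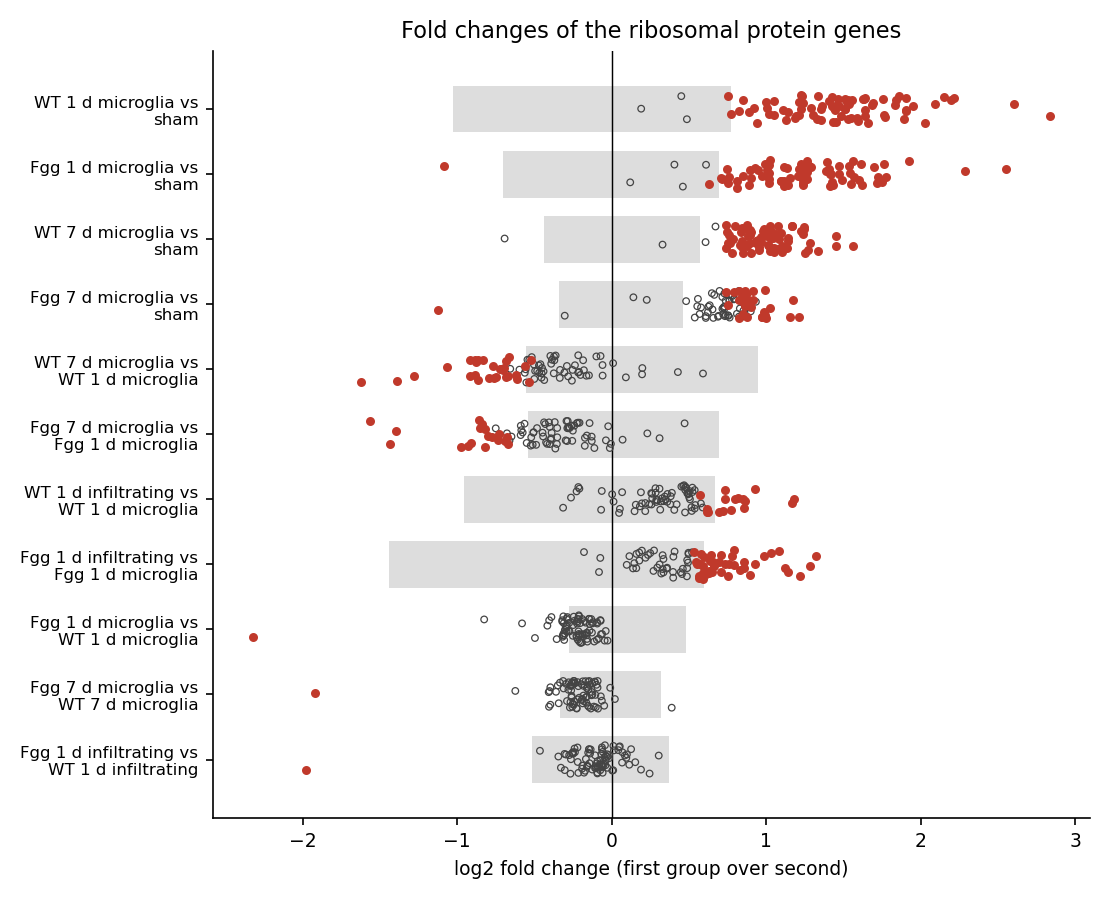
Each point is a ribosomal protein gene's log2 fold change, first group over second, for 82 members (the sparse Rpl3l and Rpl39l are not drawn), in red where the adjusted p was under 0.05 and open elsewhere. Grey bars span the middle quartiles of all 23815 genes. In the 4 comparisons with sham most points lie to the right of the bars or at their edge, and in the 3 genotype comparisons at the foot the 1 red point is Rps3a1.

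Between 1 d and 7 d part of the family came down. In WT microglia 29 of 84 members fell and 0 rose, with a median log2 change of -0.49, against 6.6% and 3.7% of all genes. Among Fgg γ390–396A microglia 18 fell and 0 rose, with a median of -0.41, against 4.56% and 1.08%. The 18 were all among the 29, and these comparisons share no library. Across the 82 members with at least 1000 counts the changes in the 2 genotypes had r = 0.936, and over all 11233 genes with that many counts r = 0.716. This is a description across genes, which are not independent replicates. Rps2 fell to 362, 288 and 324 CPM in WT and 285, 256 and 274 CPM in Fgg γ390–396A microglia, a log2 change of -1.62 ± 0.21 and -1.56 ± 0.21 (adjusted p = 4.83e-05 and 0.000153). Rpsa fell to 211, 207 and 198 CPM and to 149.3, 149.8 and 166.2 CPM (-1.28 ± 0.24 and -1.40 ± 0.24, adjusted p = 0.00139 and 0.00135). Rps27l changed by -1.39 ± 0.23 and -1.43 ± 0.23 (adjusted p = 0.000419 and 0.000701), to 60.6, 51.0 and 63.1 CPM in WT microglia. Rpl8, a large-subunit protein close to the peptidyl transferase centre, changed by -1.06 ± 0.19 in WT microglia (adjusted p = 0.000787). Without number 1 of both 1 d groups, the fall was called in 42 members in WT and 41 in Fgg γ390–396A microglia. Without any single library the counts ran from 10 (WT 7 d number 2) to 34 in WT and from 6 (Fgg γ390–396A 1 d number 3) to 36 in Fgg γ390–396A microglia. Shares of all genes called in these refits are not given, so whether the higher or lower counts are particular to the members was not tested.

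To see which members changed by more or less than their family, counts were scaled to the summed members of each library, so that a change is a change in the gene's share of ribosomal protein mRNA. At 1 d against sham, 18 members gained and 14 lost share in WT microglia, and 15 gained and 11 lost in Fgg γ390–396A microglia. The 11 include Rps3a1 (-2.23 ± 0.16) and Rpl34 (-0.53 ± 0.14), which were not called in WT (-0.12 ± 0.16 and 0.07 ± 0.14). In Fgg γ390–396A libraries many counts lay on the pseudogenes of these genes, as given below, so their loss is uncertain as a change of mRNA. On this scale 1.91% and 34.1% of all genes were higher and lower in WT, and 1.4% and 24.6% in Fgg γ390–396A microglia. Those that gained in WT included Rpsa (1.45 ± 0.17, adjusted p = 3.43e-06), Rps2 (1.23 ± 0.13, adjusted p = 1.36e-06), Rpl41, Rps19, Rplp0, Rpl12 and Rpl8. Those that lost included Rpl7l1 (-1.20 ± 0.24, adjusted p = 0.000615), Rps27 (-0.93 ± 0.12, adjusted p = 6.19e-06), Rps27rt, Rps9, which lies at the mRNA entry with Rps2, Rpl35a, Rps4x and Rps29. From 1 d to 7 d, 6 gained and 9 lost in WT microglia (6.11% and 2.69% of all genes) and 3 gained and 5 lost in Fgg γ390–396A microglia (1.31% and 1.44%). Rps27 gained 0.84 ± 0.12 and Rps2 changed by -1.20 ± 0.13 in WT microglia (adjusted p = 0.000163 and 1.75e-05).

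The 1 d infiltrating cells were compared with microglia of the same day and genotype, and part of the family was higher. In WT mice 17 of 84 members were higher and 1 lower, with a median log2 difference of 0.40, against 7.56% and 8.12% of all genes. In Fgg γ390–396A mice 42 were higher and 0 lower, with a median of 0.54, against 9.33% and 12.1%, where the median of all genes was -0.13. The 17 were all among the 42, and these comparisons share no library. These counts rest on single libraries. Without number 1 of WT microglia 7 remained, without number 1 or 2 of the WT infiltrating cells 9 or 11, and without number 1 of Fgg γ390–396A microglia 18. Without number 1 of both microglia groups the counts were 10 and 20. DESeq2 called 45 and 67. The shares of all genes called in these refits are not given, so their counts cannot be set against the shares above. Scaled to totals outside ribosomal RNA alone, the WT median was 0.12, with 9 members higher and 3 lower, while the median of all genes was -0.24.

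Rps27, whose counts cannot be fully told apart from those of Rps27rt, had the smallest adjusted p of the members in both comparisons. It measured 4109, 3580 and 2878 CPM in WT and 4073, 3698 and 3548 CPM in Fgg γ390–396A infiltrating cells, above every microglial library. The log2 differences were 1.18 ± 0.18 and 1.32 ± 0.18 (adjusted p = 0.000144 and 3.63e-05). Rps27rt gave 1.17 ± 0.22 and 1.15 ± 0.22 (adjusted p = 0.000978 and 0.000962), Rps9 0.93 ± 0.17 and 0.86 ± 0.17 (adjusted p = 0.000773 and 0.00127), and Rpl36al, a paralog of Rpl36a, 0.85 ± 0.20 and 1.12 ± 0.20 (adjusted p = 0.00473 and 0.000377). Rps27l gave 0.80 ± 0.22 and 1.29 ± 0.23 (adjusted p = 0.0182 and 0.000377). Rpl36a itself differed by 0.22 ± 0.23 and 0.10 ± 0.23 (adjusted p = 0.584 and 0.846). The pair is 87.85% identical over 321 coding bases. Rpsa and Rps2 did not pass the test: 472.8, 439.0 and 364.1 CPM of Rpsa in WT infiltrating cells gave a log2 difference of -0.23 ± 0.24 (adjusted p = 0.582), and Rps2 gave -0.31 ± 0.20 (adjusted p = 0.324).

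Relative to the summed members, 7 gained and 10 lost share in WT infiltrating cells (4.06% and 14.0% of all genes) and 9 gained and 9 lost in Fgg γ390–396A cells (4.72% and 23.9%). Rps27 gained 0.74 ± 0.12 and 0.76 ± 0.12 (adjusted p = 0.000157 and 8.68e-05), and Rps2 changed by -0.73 ± 0.13 and -0.62 ± 0.13 (adjusted p = 0.000468 and 0.00136). Rplp1 changed by -0.70 ± 0.12 and -0.73 ± 0.12 on the log2 scale (adjusted p = 0.00037 and 0.000168). The sparse Rpl39l, with 1.41, 3.18 and 1.09 CPM in WT microglia at 1 d, was at 0 in all 3 WT infiltrating libraries. It was the one member called lower there, and its fitted fold change depends on the handling of zeros and is not given.

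**Figure D3:**
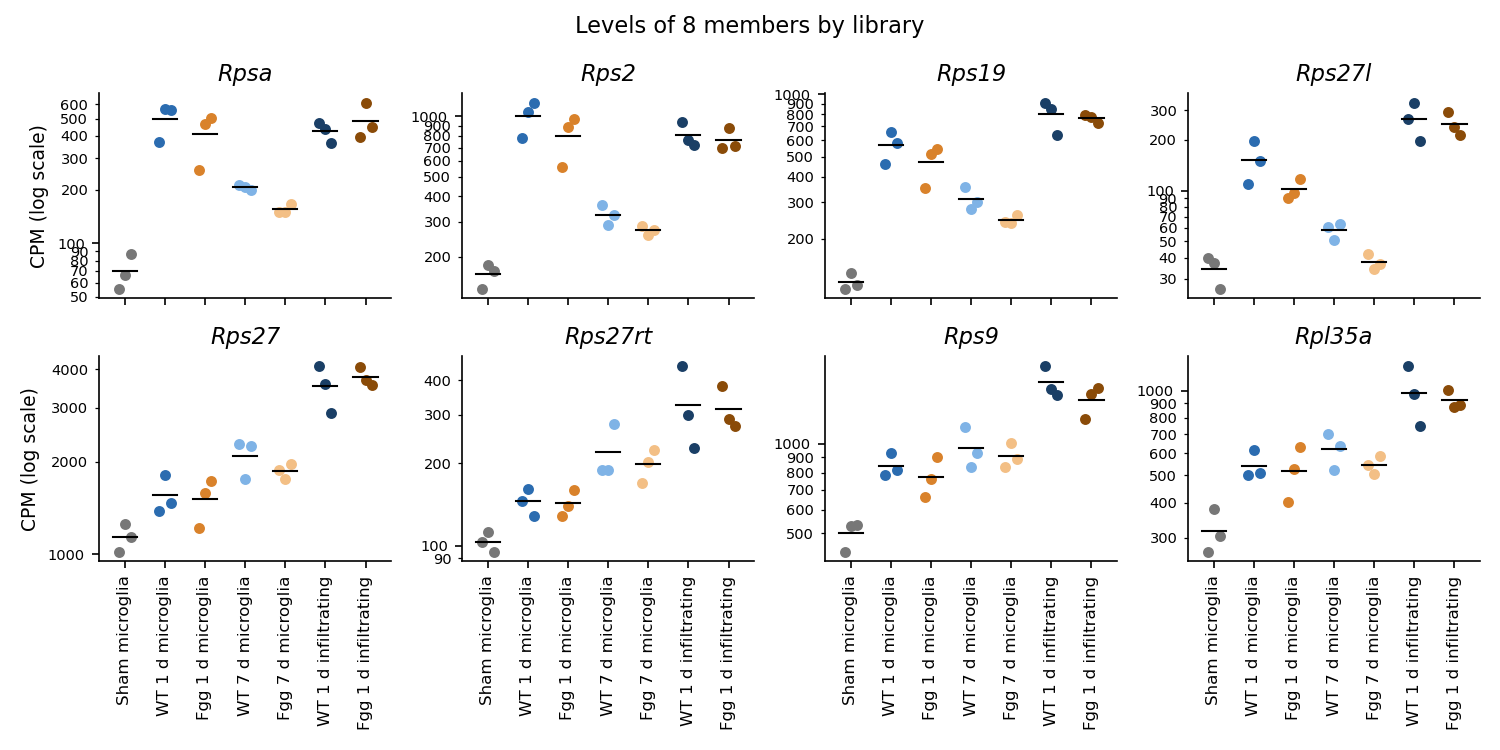
CPM per library on log axes for 8 members, with each group's mean as a black line. Rpsa, Rps2, Rps19 and Rps27l (top) rise from sham to 1 d and lie lower again at 7 d, while Rps27, Rps27rt, Rps9 and Rpl35a (bottom) have higher means at 7 d than at 1 d, and their highest means in infiltrating cells. The split of counts between Rps27 and Rps27rt is uncertain.

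Other genes of ribosome production were followed in 4 lists. Of 18 other mRNAs known to carry a 5′ TOP, mostly translation factors, 18 rose in WT and 16 in Fgg γ390–396A microglia at 1 d, with medians of 1.26 and 1.07, and 16 and 4 were still higher at 7 d (0.97 and 0.71). Over all genes, 10.7% and 7.6% were higher at 1 d and 2.42% and 0.831% at 7 d. Of 49 assembly factors, 34 and 28 rose at 1 d (medians 1.19 and 1.03), but 2 and 1 were higher at 7 d (0.07 and 0.10), close to the share of all genes. The snoRNP proteins rose in 9 of 11 cases in both genotypes at 1 d (1.49 and 1.35) and in 0 at 7 d (-0.05 and -0.06). RNA polymerase I and its factors were called in 5 and 3 of 16 genes at 1 d (0.41 and 0.50), and in 1 and 0 at 7 d. No gene of these lists was lower than sham at either time in either genotype.

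Single genes show how the lists parted from the members at 7 d. Nop58, a core protein of box C/D snoRNPs, had a mean of 32.9 ± 2.85 CPM (SD, n = 3) in sham, 112 ± 7.99 CPM in WT microglia at 1 d and 29.6 ± 3.37 CPM at 7 d. Its log2 changes were 1.77 ± 0.19 from sham to 1 d (adjusted p = 2.48e-06) and -1.92 ± 0.19 from 1 d to 7 d (adjusted p = 6.69e-06), against 1.47 and -0.49 for the median member. Nhp2, of box H/ACA snoRNPs, gave 2.12 ± 0.22 and -2.05 ± 0.22 (adjusted p = 2.15e-06 and 1.68e-05). Eef1a1, the elongation factor that carries tRNA and a TOP mRNA, gave 1.15 ± 0.25 and 0.03 ± 0.25 (adjusted p = 0.00276 and 1). The assembly factors still called at 7 d in WT microglia were Npm1, which is on the TOP list too, and Ncl.

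From 1 d to 7 d in WT microglia, 33 of 49 assembly factors, 9 of 11 snoRNP proteins, 3 of 16 polymerase I genes and 7 of 18 TOP mRNAs fell, with medians of -1.14, -1.47, -0.48 and -0.52, and 0 rose. In Fgg γ390–396A microglia the counts that fell were 22, 8, 2 and 6. Over all genes 6.6% and 4.56% fell in the 2 genotypes. In infiltrating cells against microglia, where 17 and 42 members had passed as higher, 13 and 17 assembly factors were lower in WT and Fgg γ390–396A mice and 0 higher (median -0.55 in both). The snoRNP proteins were lower in 2 and 4 cases and polymerase I genes in 5 and 5, while 3 and 7 TOP mRNAs were higher. Over all genes 8.12% and 12.1% were lower and 7.56% and 9.33% higher. Tpt1, a TOP mRNA for a translationally controlled protein, was higher by 1.39 ± 0.21 and 1.86 ± 0.21 (adjusted p = 8.17e-05 and 3.14e-06).

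**Figure D4:**
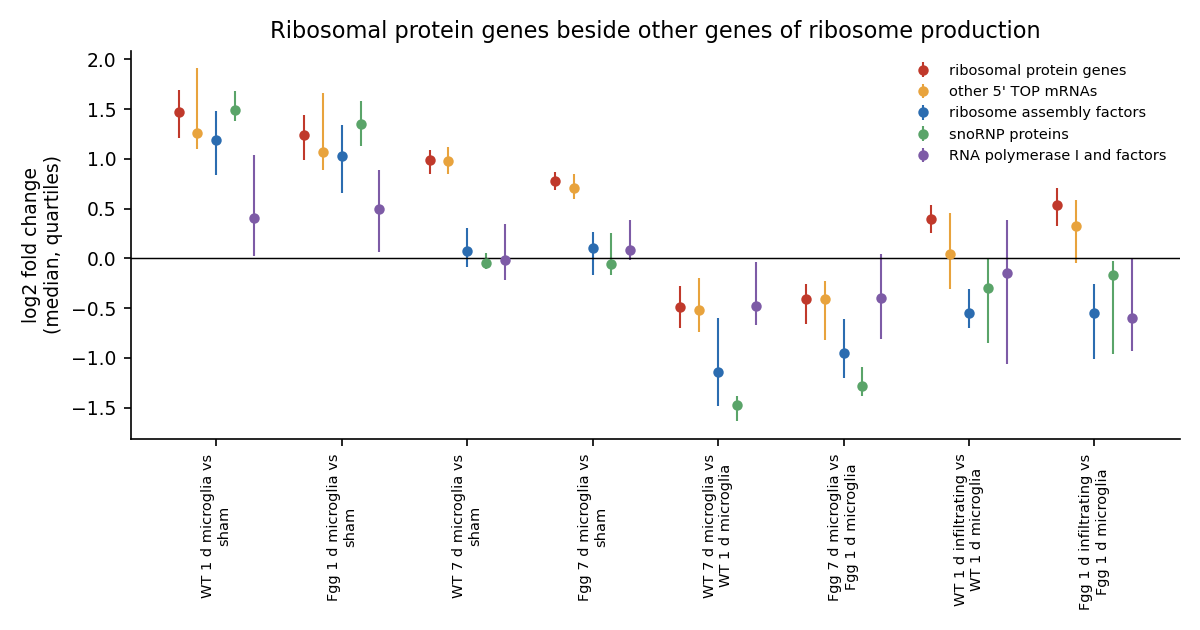
Median log2 fold change (points) and quartiles (bars) of the ribosomal protein genes and of 4 lists, in 8 comparisons. All 5 medians lie above 0 at 1 d, the members and TOP mRNAs stay near 1 in WT microglia at 7 d while the other 3 lie near 0, and in infiltrating cells the members lie above 0 and the assembly factors at -0.55.

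Between genotypes a single member passed the test. In each of the 3 comparisons of Fgg γ390–396A with WT cells, 0 members were higher and 1 was lower. The shares of all genes were 0.0294% and 0.0126% in microglia at 1 d, 0.0252% and 0.0126% at 7 d, and 0.122% and 0.084% in infiltrating cells. Median log2 differences were -0.21, -0.20 and -0.08, and 5, 3 and 3 members had an unadjusted p under 0.05 in edgeR (5.95%, 3.57% and 3.57% of members, against 5.08%, 3.34% and 11.5% of all genes), while DESeq2 called 2, 1 and 1. Shares of all genes called by DESeq2 are not given. The sign of the small median differences in microglia depends on scaling: with library totals it was 0.10 at 1 d and 0.01 at 7 d. Neither the difference of the genotype effect between cell types nor between times was called for any member (0.0252% and 0.0% of all genes), and 1 and 0 members had an unadjusted p under 0.05 in edgeR, against 8.37% and 2.74% of all genes. The smallest p was that of Rps27a, which encodes ubiquitin fused to a small-subunit protein, between cell types (0.54 ± 0.25 on the log2 scale, adjusted p = 0.583).

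The 1 call was Rps3a1, a small-subunit protein gene. It measured 569.9, 600.6 and 580.8 CPM in WT and 91.1, 122 and 137 CPM in Fgg γ390–396A microglia at 1 d, a log2 difference of -2.32 ± 0.20 (adjusted p = 2.42e-06). At 7 d the difference was -1.92 ± 0.20 and in infiltrating cells -1.98 ± 0.20 (adjusted p = 3.99e-05 and 2.00e-05). Fgg γ390–396A microglia also lay below the sham libraries, by -1.09 ± 0.19 at 1 d and -1.12 ± 0.19 at 7 d (adjusted p = 0.000714 and 0.00532), which were the calls in the lower direction given above.

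The pseudogenes differed the other way. Rps3a2 and Rps3a3 together held 9.43 ± 3.74 CPM in sham and 25.5 ± 10.2 CPM in WT microglia at 1 d, but 511 ± 76.1 CPM in Fgg γ390–396A microglia (SD, n = 3). At 7 d they held 21.0 ± 5.70 against 358 ± 69.2 CPM, and in infiltrating cells 28.2 ± 1.55 against 692 ± 72.4 CPM. The sum of gene and pseudogenes was 609 ± 12.4 CPM in WT and 628 ± 99.5 CPM in Fgg γ390–396A microglia at 1 d. With pseudogenes summed into their genes, the genotype differences of Rps3a1 were 0.04 ± 0.17, 0.06 ± 0.17 and 0.15 ± 0.17 (adjusted p = 1, 1 and 0.808), no member was called between genotypes in edgeR, and Rps3a1 was higher than sham in Fgg γ390–396A microglia (1.29 ± 0.17 at 1 d, adjusted p = 5.24e-05). Then 79 members were higher and 0 lower there at 1 d, with the share of all genes called in that fit not given.

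Rpl34, a large-subunit protein gene on the same chromosome, showed a smaller and less regular difference, which did not pass the test. At 1 d it held 303, 420 and 377 CPM in WT and 153, 229 and 239 CPM in Fgg γ390–396A microglia (log2 difference -0.82 ± 0.21, adjusted p = 0.467). Its pseudogenes held 20.1 ± 5.04 and 247 ± 100 CPM, nearly all on Rpl34-ps1. With these summed the difference was 0.23 ± 0.22 (adjusted p = 0.954). In infiltrating cells the sum was 630 ± 96.1 CPM in WT and 999 ± 256 CPM in Fgg γ390–396A mice (0.67 ± 0.22, adjusted p = 0.256). Over all libraries the pseudogenes held 81.5% as many counts as Rps3a1 and 52.9% as many as Rpl34, and Rpl38 came next at 24.5%. Rps3a1 stood at 378 CPM or more in all WT libraries after injury and at 204 CPM or less in all Fgg γ390–396A libraries. Fgg itself lies on the chromosome of Rps3a1 and Rpl34 (chr3:83007724-83015049, plus strand). Whether the WT and knock-in mice differ in the sequence of these genes was not tested, since the files hold no reads, so the values of both between genotypes are uncertain as levels of mRNA.

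**Figure D5:**
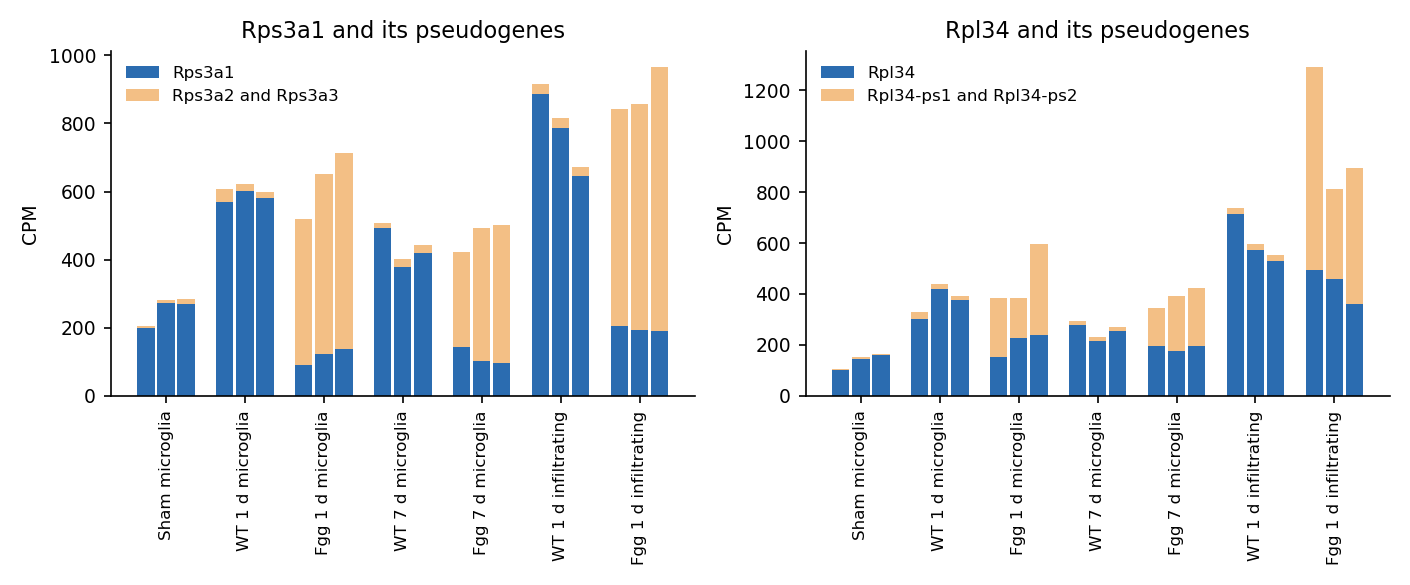
CPM per library, stacked, for Rps3a1 and Rpl34 (blue) and their pseudogenes (orange), on linear axes from 0. In WT libraries the bars are almost wholly blue, and in Fgg γ390–396A libraries the pseudogenes make up most of the Rps3a1 bars, which reach heights close to those in WT.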

How the data were processed

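RNA of 21 libraries in 7 groups of 3 was analysed. Reads were trimmed and assigned by the authors with salmon, through nf-core/rnaseq and the GRCm38 build. They deposited expected counts per gene, scaled from transcript abundance so that gene length is divided out and each library sums to its mapped reads. The submitters' processing notes name DESeq2 1.36.0 and R 4.2.0. These estimated counts, as deposited, were rounded here. No unused value columns were left. Of 45706 identifiers, 45143 were found in GENCODE M21, the source of symbols, positions and gene biotypes.

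With edgeR 4.0.16 (R 4.3.3), counts were scaled by TMM factors and fitted by glmQLFit and glmQLFTest with 1 mean per group over all 21 libraries, for 23815 genes with at least 5 counts in total. P-values were Benjamini-Hochberg adjusted over all of them, and calls were adjusted p under 0.05. The common biological coefficient of variation was 0.643. The SE of a log2 fold change came from the fold change and its F statistic. CPM used TMM-scaled totals. The fit was tested on simulated data with as many genes raised as lowered, in WT microglia at 1 d. That simulation did not probe how TMM scaling handles an unbalanced shift. Members and lists were chosen with earlier results of these data known, and the lists were written from general knowledge. Named members were the 3 with the smallest adjusted p in each comparison and direction, those highest and lowest in level, paralogs with their parents, Rps3a1 and Rpl34 with their pseudogenes, and members with a landmark role such as the stalk proteins, Rpsa, Rps6 and Rps19. Others (among them Rpl35a, Rps27a and the genes of the other lists) were named after their values were seen. P-values measure the spread between libraries of pooled brains. Floors cover counting error only.

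Alternatives were DESeq2 1.42.0, other scalings and filters, a replicate block, single libraries left out, pseudogenes summed, chromosome 3 members left out, and, chosen after seeing the data, number 1 left out of both 1 d microglia groups. Replicate numbers were taken as a possible pairing of the Fgg γ390–396A and WT microglia at 1 d, which no label states. Deviations of same-numbered libraries correlated there at 0.41, 0.197 and 0.122. The 0.41 belonged to the number 1 libraries, both with the higher monocyte markers. Libraries of unlike number in that comparison correlated at -0.295 to 0.141. The main fit and its p-values did not use this pairing. With the block, fitted over all 21 libraries, 1 member was called there, as without it. Sequences came from GENCODE M21 transcripts and from RefSeq (GRCm38.p6). No RefSeq start window was used for 20 members.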

Additional observations from a re-analysis of the deposited data

How the results depend on the processing

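Called members and medians kept their direction in most settings. Of 216 recomputed counts of called members, 154 lay within 1.5 times the main count, and 181 of 205 medians moved by less than the replicate spread. Of 2048 recomputed values of named members, 303 were weaker and 30 reversed. Shares of all genes called are given only for the main fit and, in some comparisons, for scaling to the summed members. With the replicate block the counts ran from 79 (WT) and 78 (Fgg γ390–396A) at 1 d against sham to 1 between genotypes. Outside the 1 d genotype comparison the numbers were not taken to pair the libraries. For WT infiltrating cells against microglia, same-numbered libraries correlated at 0.154, 0.13 and 0.027, and unlike numbers at -0.175 to 0.07. In Fgg γ390–396A mice the values were -0.025, 0.08 and 0.032, against -0.164 to 0.116. The labels do not say whether same-numbered libraries came from the same brains. Depth did not limit the members but for Rpl3l and Rpl39l.

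Library totals without TMM gave medians of 0.72 and 0.78 (WT and Fgg γ390–396A at 1 d against sham), 0.43 with 22 called and 0.45 with 4 called (7 d), -0.27 with 16 called (WT, 7 d against 1 d), 0.096 and 0.0067 between genotypes in microglia at 1 d and 7 d, and 0.16 with 14 called (Fgg γ390–396A infiltrating cells against microglia). Totals outside ribosomal RNA gave 1.01, 0.90, 0.66 and 0.61 against sham, -0.050 between genotypes at 7 d, 0.12 in WT infiltrating cells and 0.21 with 19 called in Fgg γ390–396A ones. On all counts the share ratios were 1.54 (WT 1 d to sham) and 1.33 (WT infiltrating cells to microglia).

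Scaled to the summed members, which removes the shared change by construction, calls and medians were 32 and 0.091, 26 and 0.069, 6 and 0.026, and 6 and 0.017 against sham. The shares of all genes called at 7 d on this scale are not given, so the counts of 6 cannot be set against a share. From 1 d to 7 d they were 15 and -0.078 in WT and 8 and -0.015 in Fgg γ390–396A microglia. In infiltrating cells the WT median was -0.035 and Fgg γ390–396A gave 18 and -0.015, and the genotype median at 7 d was -0.0021. On this scale members that had risen against sham turned negative. In WT at 1 d these were Rpl10 -0.38, Rpl39 -0.17, Rpl5 -0.15, Rpl7 -0.24, Rplp1 -0.32, Rplp2 -0.16, Rps29 -0.49, Rps3a1 -0.12 and Rps4x -0.54. In Fgg γ390–396A at 1 d they were Rpl10 -0.36, Rpl39 -0.051, Rpl5 -0.20, Rpl7 -0.14, Rplp1 -0.24, Rplp2 -0.13, Rps29 -0.41, Rps3 -0.0090 and Rps4x -0.42. In WT at 7 d they were Rpl10 -0.215, Rpl11 -0.0020, Rpl34 -0.068, Rpl36a -0.016, Rpl36al -0.19, Rpl5 -0.060, Rplp2 -0.17, Rps27 -0.086, Rps29 -0.058, Rps3 -0.19 and Rps3a1 -0.16, and in Fgg γ390–396A at 7 d Rpl5 -0.031.

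DESeq2 called 75 members in Fgg γ390–396A microglia at 7 d, 45 and 67 in WT and Fgg γ390–396A infiltrating cells and 2 between genotypes at 1 d. Its size factors in edgeR gave 37 in WT infiltrating cells. The filter of filterByExpr gave 49 (Fgg γ390–396A, 7 d) and 39 (WT infiltrating cells), and a fit of the compared groups alone 14 (Fgg γ390–396A, 7 d), 11 (Fgg γ390–396A, 7 d against 1 d), 11 and 22 (WT and Fgg γ390–396A infiltrating cells). A bar of an absolute log2 fold change of 1 left 40 and 5 at 7 d, 4 and 3 from 1 d to 7 d, and 3 and 7 in infiltrating cells. Without number 1 of both 1 d microglia groups the counts were 41 (Fgg γ390–396A, 7 d against 1 d), 10 and 20 (infiltrating cells). With pseudogenes summed, 0 were called between genotypes in each of the 3 comparisons. Leaving out chromosome 3 members also gave 0, but by construction, since Rps3a1, the member called in the main fit, lies on that chromosome. Other than where the alternative's construction shows it, the cause was not tested.

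Leaving out 1 library at a time gave 78 to 79 and 71 to 79 calls at 1 d against sham, 46 to 72 (46 without sham number 1, 49 without WT number 1) and 4 to 20 at 7 d, and 10 to 34 (10 without WT 7 d number 2, 17 without its number 3, 17 and 19 without WT 1 d numbers 2 and 3) and 6 to 36 (36, 7 and 6 without Fgg γ390–396A 1 d numbers 1, 2 and 3, 8, 9 and 9 without its 7 d numbers) from 1 d to 7 d. Between genotypes it was 1 throughout. In infiltrating cells it gave 7 to 24 (7 without WT microglia number 1, 9 and 11 without WT infiltrating numbers 1 and 2) and 18 to 49 (18 and 27 without Fgg γ390–396A microglia numbers 1 and 2, 26 without infiltrating number 2). Medians ran from 1.38 to 1.57, 1.08 to 1.39, 0.88 to 1.07 and 0.69 to 0.85 against sham, -0.63 to -0.41 and -0.56 to -0.29 from 1 d to 7 d, -0.36 to -0.056, -0.27 to -0.12 and -0.20 to 0.016 between genotypes, and 0.32 to 0.52 and 0.38 to 0.68 in infiltrating cells.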
